A study of Rattus norvegicus with 12 samples.

Results

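Total RNA of neonatal rat heart muscle cells was compared between 3 libraries from cells exposed to phenylephrine (PE) for 24 h and 3 libraries from mock-treated cells. These 6 input libraries, chosen by their labels, are 6 of the 12 libraries of the study. The other 6 libraries hold RNA precipitated with an antibody against the RNA-binding protein Cpeb4, 3 from mock and 3 from PE cells, and serve here as a second reading of the same genes. All cells were ventricular cardiomyocytes of Wistar rats, labelled as 2 days old, obtained by trypsin digestion and a Percoll gradient. The input groups were made without an antibody, and treatment is the only difference between them that the labels state. For the PE dose, the content of the mock treatment and the pooling of hearts, the sources used here state nothing. Whether replicates are separate cultures is not stated in the labels, so p-values reflect the spread among these libraries, of which part or all may be technical.

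Phenylephrine activates alpha1-adrenergic receptors. These couple through Gq proteins to phospholipase C, protein kinase C, calcium release and the MAP kinases. In cultured neonatal cardiomyocytes the agonist is a standard inducer of hypertrophy: the cells enlarge, add sarcomeres and re-express genes of the fetal heart, among them natriuretic peptides, skeletal alpha-actin and beta-myosin heavy chain.

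Genes are listed by Ensembl rat identifier. The sources used here do not pair these identifiers with symbols, and 0 of 32883 matched the reference table, so no gene is named and no sequence is shown. A set of 3 identifiers, ENSRNOG00000017786, ENSRNOG00000008176 and ENSRNOG00000008141, had been put forward as known hypertrophy genes and is used as anchors. The anchors were chosen with earlier results of these data known, so their ranks and separation here are no independent check. Markers of cardiomyocytes and of other heart cells were not analysed here for the same reason, and a change in cell makeup and a change in RNA per cell cannot be told apart in bulk RNA.

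Library totals ran from 1423334 to 29538785 counts, with 14883816 counts in the 3 mock libraries and 39845467 in the 3 PE libraries. A pair of libraries stood apart, mock replicate 2 and PE replicate 1. Among genes whose median level in the other input libraries was 5 to 10 CPM (counts relative to each library's effective total, with composition factors applied), 22.4% and 21.1% had no count in these libraries, against at most 8.17% in the other 4. Rank correlations of gene levels (Spearman, across 10491 genes of libraries that share a protocol) were 0.73 to 0.77 for the 9 pairs that include either of them and 0.85 to 0.91 for the 6 pairs that include neither. Within the mock group they were 0.75 to 0.88, within the PE group 0.75 to 0.89, and between the groups 0.73 to 0.91. The PE libraries were thus no closer to each other than to the mock libraries. Results are given with and without this pair where it changes them.

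All 3 anchors were higher in every PE library than in any mock library, by about 4-fold to 5-fold in the fit. Of these, 1 passed the test across all genes, and it was the only gene to do so. Levels are given as normalised counts in CPM.

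ENSRNOG00000017786 stood at 874, 815 and 704 CPM in mock replicates 1, 2 and 3, and at 2900, 3844 and 5752 CPM in PE replicates 1, 2 and 3. The mock values lay close together, and the lowest PE value was 3.32 times the highest mock value. Its mean rose from 798 ± 86.5 CPM (SD, n = 3) to 4165 ± 1453 CPM (SD, n = 3). The log2 fold change was 2.38 (SE 0.31, edgeR quasi-likelihood adjusted p = 0.00906), a 5.22-fold rise with a 95% interval of 3.30 to 8.25. The same separation was present before composition factors: the gene took 0.0427%, 0.0716% and 0.0367% of the raw counts in mock libraries and 0.278%, 0.278% and 0.326% in PE libraries. It ranked 63 of 10491 by level in input, and among the 1095 genes with a mean of at least 100 CPM it had the highest log2 fold change.

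ENSRNOG00000008176 was the most abundant anchor, ranked 16 by level. It measured 3660, 4138 and 3021 CPM in mock replicates 1, 2 and 3, and 25380, 7317 and 10338 CPM in PE replicates 1, 2 and 3. The groups did not overlap, but PE replicate 1 was far above the other 2 PE libraries and held 2.43% of its raw counts in this gene, against 0.528% and 0.586% in PE replicates 2 and 3. The means were 3606 ± 561 CPM (SD, n = 3) in mock and 14345 ± 9676 CPM (SD, n = 3) in PE. The log2 fold change of 1.99 (SE 0.47, 95% interval 0.98 to 3.00) did not pass after adjustment over all genes (edgeR adjusted p = 0.635, unadjusted p = 0.000778). Without PE replicate 1 it was 1.29 (SE 0.41, edgeR adjusted p = 1), so this 1 library moved the estimated fold by more than 1.5 times.

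ENSRNOG00000008141 was the least abundant of the anchors, ranked 210 by level. Its mock values were 342, 156 and 198 CPM in replicates 1, 2 and 3, and its PE values were 938, 773 and 1231 CPM. Every PE library lay at least 2.26 times above every mock library, and PE replicate 1 was the middle value here. The mean went from 232 ± 97.4 CPM (SD, n = 3) to 981 ± 232 CPM (SD, n = 3), a log2 fold change of 2.08 (SE 0.57, 95% interval 0.86 to 3.29) that did not pass (edgeR adjusted p = 0.88, unadjusted p = 0.00248). Among the 1095 genes at 100 CPM or more, this anchor ranked 5 and ENSRNOG00000008176 ranked 6 by log2 fold change. For each anchor alone, a two-sided exact permutation test of the 3 PE against the 3 mock CPM values gave p = 0.1, the smallest value that 3 against 3 allows.

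**Figure D1:**
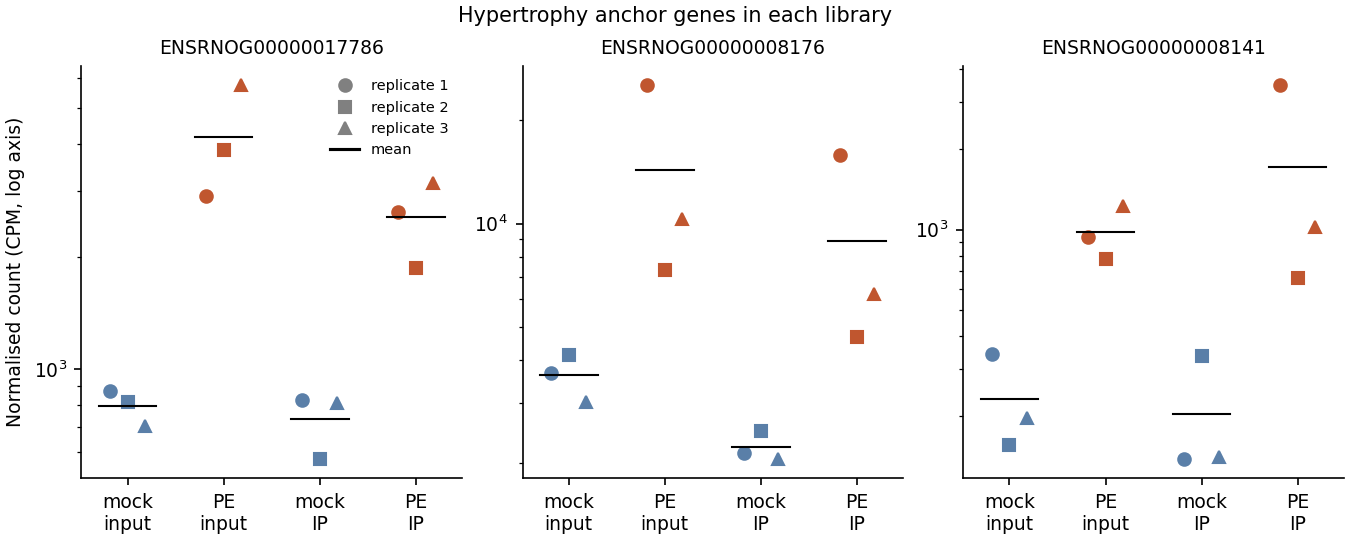
Normalised counts (CPM, log axis) of the 3 anchor genes in each of the 12 libraries, with input and Cpeb4 precipitate (IP) groups side by side, replicate numbers as symbols and group means as lines. In all 3 panels the PE points lie above all mock points of the same RNA type, and PE replicate 1 is the highest point of ENSRNOG00000008176 in input at 25380 CPM.

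The call of ENSRNOG00000017786 was lost when certain single input libraries were left out. Leaving out mock input replicate 1, 2 or 3 gave edgeR adjusted p-values of 0.115, 0.155 and 0.226, and leaving out PE input replicate 3 gave 0.0682, while its log2 fold change stayed between 2.08 and 2.59 over all 12 fits that left out 1 library. The comparison that set mock replicate 2 and PE replicate 1 apart used input libraries only. Leaving out PE input replicate 1 alone did not make ENSRNOG00000008176 pass. With mock replicate 2 and PE replicate 1 set aside in input and precipitates alike, which left 2 libraries per group, all 3 anchors passed. ENSRNOG00000017786 then stood at 2.59 on the log2 scale (SE 0.26, edgeR adjusted p = 0.000167), ENSRNOG00000008176 at 1.39 (SE 0.22, adjusted p = 0.0137) and ENSRNOG00000008141 at 1.87 (SE 0.30, adjusted p = 0.0137). Precipitates share the estimate of spread. Leaving out PE precipitate replicate 1 alone lowered the input SE of ENSRNOG00000008176 from 0.47 to 0.38 and that of ENSRNOG00000008141 from 0.57 to 0.42. Neither passed in that fit (edgeR adjusted p = 0.223 and 0.263). All 3 anchors also passed by DESeq2's Wald test (adjusted p = 4.72e-10, 0.0145 and 0.0498 in the same order) and in edgeR without a filter on low counts (7.41e-07, 7.50e-05 and 0.000127). The p-values of the fit without a filter are not comparable with the others. For ENSRNOG00000017786 its SE was larger, 0.37 against 0.31 as reported. Its unadjusted edgeR p was nevertheless lower, 9.39e-11 against 8.63e-07, so that fit allowed for less uncertainty in the spread. The direction of all 3 anchors was the same in all 21 alternatives, which was likely beforehand for genes whose input groups do not overlap.

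**Figure D2:**
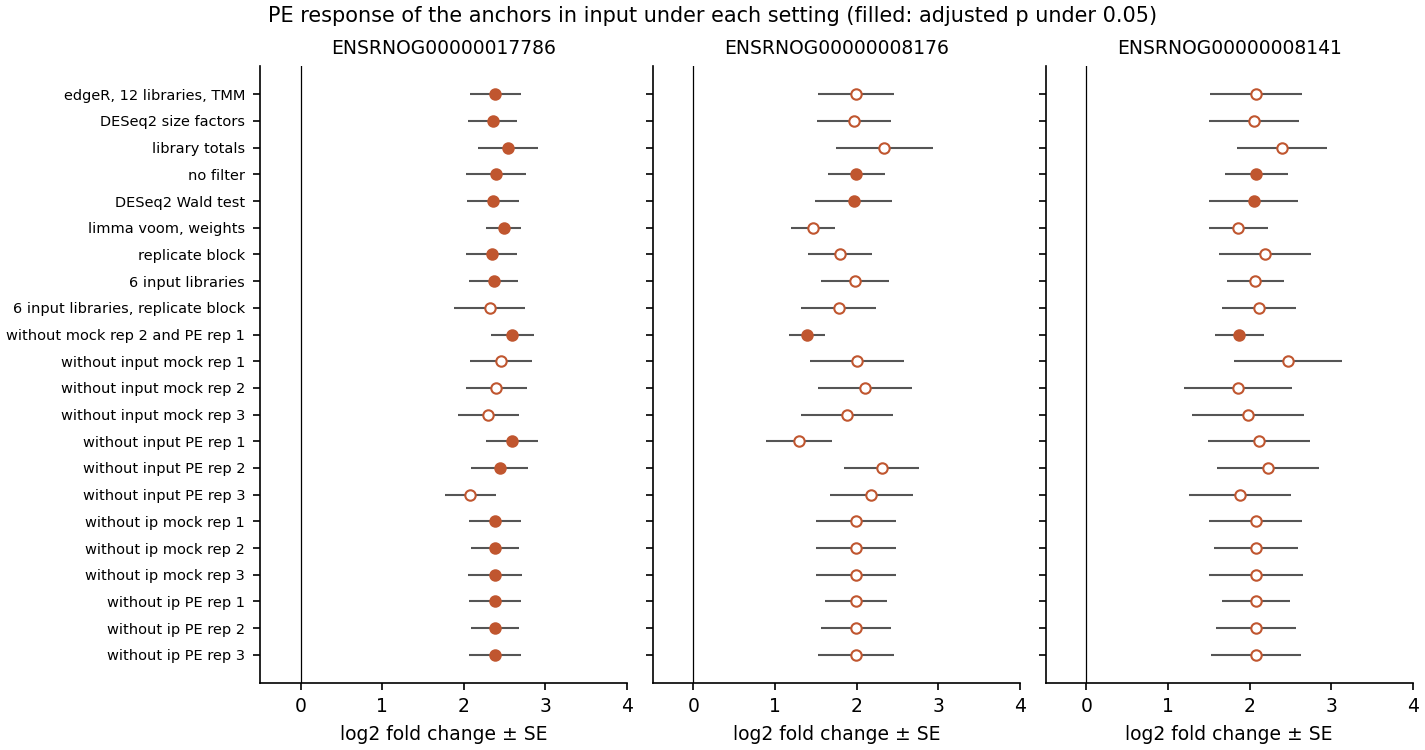
Log2 fold change of PE against mock in input (horizontal axis, bars are ± 1 SE) of each anchor under the reported fit and 21 alternatives; filled points had an adjusted p under 0.05. All points lie to the right of 0, and ENSRNOG00000017786 is filled in 16 of the 21 alternatives, the other anchors in 3 each.

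Across the transcriptome, few other genes could be separated from the spread between libraries. Of 10491 genes tested, 1 was higher (0.00953%) and 0 were lower in PE input (edgeR, adjusted p under 0.05). With no difference at all, a share of 0.05 of genes would have an unadjusted p under 0.05. At this threshold, 239 genes were higher (2.28%) and 136 lower (1.3%). This balance moved with the method, to 431 and 89 when libraries were scaled by their totals and to 375 and 315 with limma voom. By DESeq2's Wald test, 18 genes passed as higher and 3 as lower, and voom, which weights libraries by quality, passed 5 higher and 0 lower. After the passing anchor, the 5 genes with the lowest p were all higher in PE, with log2 fold changes of 1.66 to 2.66 and edgeR adjusted p-values of 0.0663 to 0.465. Of the 20 genes with the lowest p, 16 were higher and 4 lower.

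The separation of the groups, counted without a model, gave a similar picture. All 3 PE libraries were above all 3 mock libraries for 595 genes (5.67%) and below them for 438 genes (4.18%). All 3 anchors belong to the first set. If treatment changed nothing, up to a share of 0.1 of genes would be separated, counting both directions. This equals the smallest exact permutation p that 3 against 3 allows. At 100 CPM or more, where counting error is small, the shares were 6.85% higher and 5.84% lower of 1095 genes, and 4.2% were higher and 2.1% lower at an unadjusted p under 0.05.

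Most abundant transcripts differed by less than 2-fold between the groups. At 100 CPM or more, 1053 of 1095 genes (96.2%) had a log2 fold change between -1 and 1. Of the others, 29 genes (2.65%) were at least 2-fold higher in PE, the anchors among them, and 13 genes (1.19%) at least 2-fold lower. The 131 genes at 1000 CPM or more had a median log2 fold change of -0.06 with quartiles of -0.28 and 0.14. Here 5 genes were at least 2-fold higher and 1 at least 2-fold lower, and ENSRNOG00000017786 and ENSRNOG00000008176 are 2 of the 5. Differences widened as levels fell: at 10 to 100 CPM the quartiles were -0.36 and 0.46 and 13.9% of 4397 genes differed by at least 2-fold in the fit. The precision fell in step. The median SE was 0.31 on the log2 scale at 1000 CPM or more, 0.38 at 100 to 1000 CPM, 0.67 at 10 to 100 CPM and 1.99 below 10 CPM. A gene of typical spread below 10 CPM would thus need an 18.5-fold difference for its unadjusted 95% interval to leave out 0, against 1.57-fold at 1000 CPM or more. In this lowest class of 4999 genes, 309 had no count in the 3 mock libraries and 127 none in the 3 PE libraries. None of these is described singly, but their fitted fold changes enter the medians and counts over all genes and over this class. The PE group held 2.68 times the counts of the mock group, and the part of this depth in the uneven numbers was not tested.

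**Figure D3:**
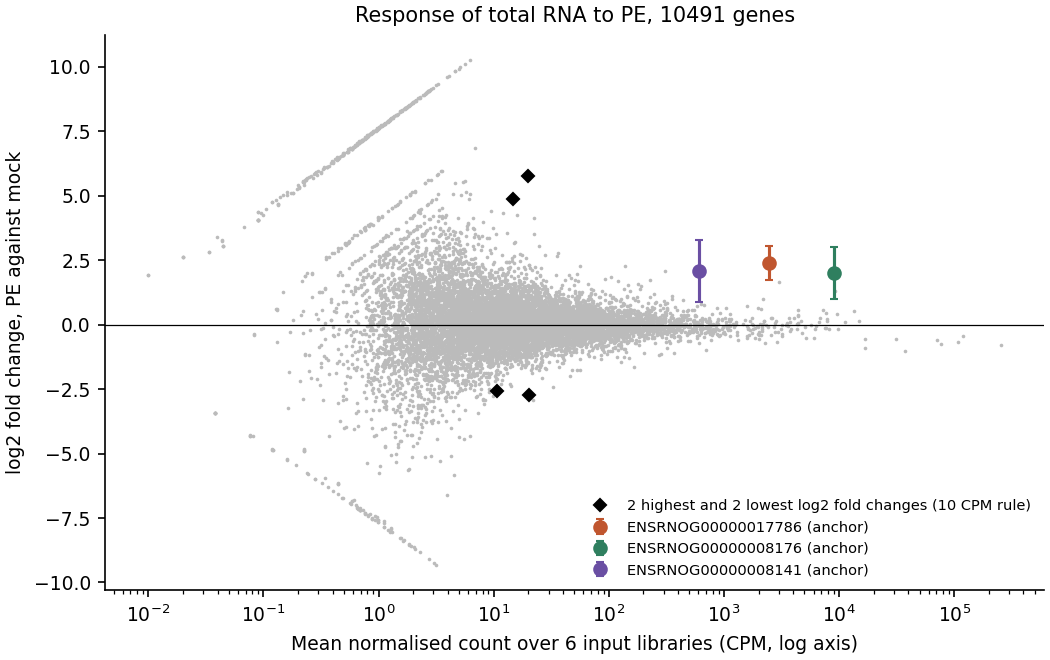
Log2 fold change of PE against mock in input (vertical axis) against mean input level (CPM, log axis) for 10491 genes, with the anchors as coloured points with 95% intervals and the genes of the 10 CPM rule as diamonds. The anchors stand above the narrow band of other abundant genes, whereas at low level the cloud widens and slanted streaks are genes with few or no counts in 1 group.

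**Figure D4:**
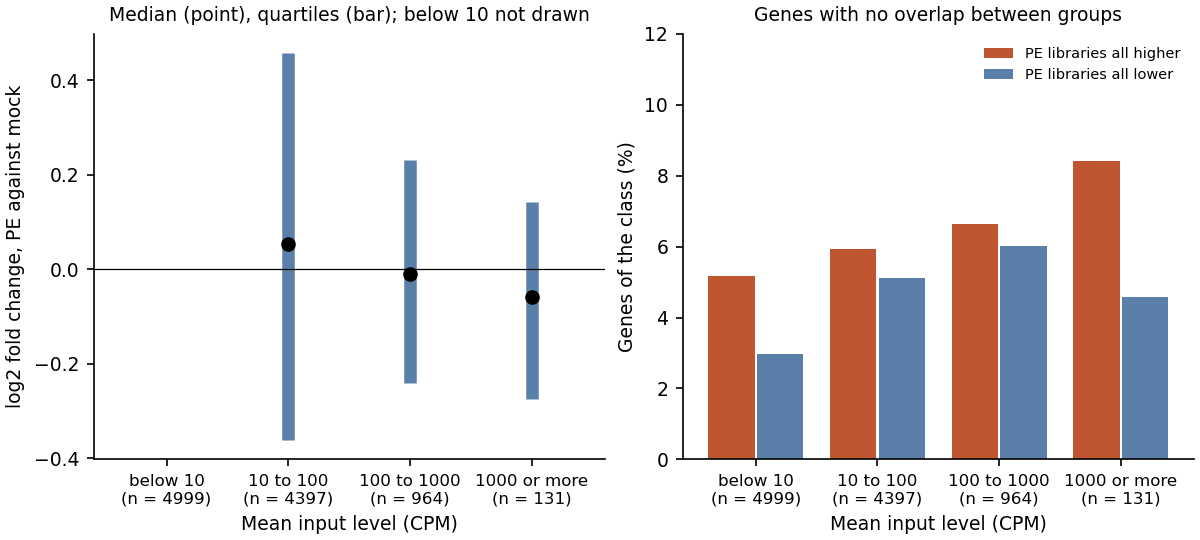
Left, median (points) and quartiles (bars) of the log2 fold change of PE against mock in 3 level classes; right, share of genes in 4 level classes whose 3 PE libraries lie all above or all below the 3 mock libraries. The bars on the left narrow from 10 CPM upwards. On the right the share of higher genes goes from 5.18% in the lowest class to 8.4% in the highest, which is 11 of 131 genes. If treatment changed nothing, higher and lower genes combined would make up a share of up to 0.1.

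Outside the anchors, 4 genes were picked by a rule of size: a mean of at least 10 CPM in input, an unadjusted p under 0.05, no overlap between the groups, and the highest or lowest log2 fold change. The rule was met by 121 genes in the higher direction (2.2% of 5492 genes at 10 CPM or more) and 75 in the lower (1.37%). None of the 4 passed after adjustment in the reported fit, and 1 of them passed in 2 alternatives, given with that gene. All are of low abundance, and the sources used here do not state their functions.

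ENSRNOG00000047300 had the highest log2 fold change, at 5.77 (SE 1.34, adjusted p = 0.635 in edgeR). It passed by DESeq2's Wald test (adjusted p = 0.00225) and in edgeR without a filter on low counts (adjusted p = 9.23e-05). It was nearly absent from mock input, where replicates 1, 2 and 3 had 3, 0 and 2 counts, whereas the PE libraries had 436, 49 and 242. In CPM, PE replicate 1 was at 88.1 and the other 2 PE libraries at 13.2 and 14.5, while no mock library exceeded 2.69. All PE libraries were thus above mock, and the highest was 1 of the libraries that stood apart. Without mock replicate 2 and PE replicate 1 the log2 fold change was 3.43 (SE 1.02, edgeR adjusted p = 0.506). It was 4.88 without mock replicate 2 alone, 6.72 without mock replicate 3 and 4.26 without PE replicate 1. In the precipitates it measured 1.95, 8.19 and 3.99 CPM in mock replicates 1, 2 and 3 and 108, 22.2 and 18.7 CPM in PE replicates 1, 2 and 3, again without overlap and again highest in PE replicate 1.

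ENSRNOG00000020030 came next, at 4.87 on the log2 scale (SE 1.55, edgeR adjusted p = 1). Replicates 1, 2 and 3 held 8, 2 and 0 counts in mock input, against 303, 27 and 281 with PE. The PE levels of 61.2, 7.28 and 16.8 CPM were all above the highest mock level of 1.93 CPM. Without mock replicate 2 and PE replicate 1 its log2 fold change was 3.16 (SE 1.13, edgeR adjusted p = 0.616), and it was 6.32 without mock replicate 1 and 3.68 without PE replicate 1. Its precipitates also did not overlap, at 3.75, 0 and 2.46 CPM in mock and 29.1, 10.9 and 17.6 CPM in PE replicates 1, 2 and 3.

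In the lower direction, ENSRNOG00000007896 had 29.7, 52.8 and 24.2 CPM in mock replicates 1, 2 and 3 and 1.62, 4.85 and 9.61 CPM in PE replicates 1, 2 and 3. The log2 fold change of -2.72 (SE 0.79) had an edgeR adjusted p of 0.932, and became -1.89 (SE 0.66, edgeR adjusted p = 0.614) without mock replicate 2 and PE replicate 1, which held its highest and lowest values, and -3.47 without PE replicate 3. In the precipitates the groups overlapped, with a log2 fold change of -1.04 (SE 0.75).

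ENSRNOG00000030285 was at 22.7, 15.5 and 17.5 CPM in mock input replicates 1, 2 and 3 and at 0, 1.08 and 7.76 CPM with PE. Its log2 fold change was -2.58 (SE 0.98) with an edgeR adjusted p of 1. In a fit of the 6 input libraries alone it was -2.63 (SE 1.29, edgeR unadjusted p = 0.063), so the gene did not meet the rule there. PE replicate 3 was the highest PE library, and without it the value was -5.18 (SE 1.10, edgeR adjusted p = 0.413). The precipitates gave it a PE response near 0, with a log2 fold change of 0.12 (SE 0.91) and means of 29.6 ± 8.03 CPM (SD, n = 3) in mock and 32.3 ± 4.76 CPM (SD, n = 3) in PE. The difference between both responses (SE 1.33) did not pass (edgeR adjusted p = 1.00, unadjusted p = 0.0582).

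The Cpeb4 precipitates provide 6 further libraries. They entered the fit behind the p-values above, through the filter and the shared estimate of each gene's spread. Whether input and precipitate of 1 number come from the same lysate is not stated, so they may share cells. The anchors were higher in every PE precipitate than in any mock precipitate. Of all genes tested, 8.61% were in this position and 6.29% in the opposite one, and 133 genes (1.27%) were higher without overlap in input and precipitates alike. For ENSRNOG00000017786 the mock precipitates stood at 829, 574 and 812 CPM and the PE precipitates at 2631, 1868 and 3155 CPM in replicates 1, 2 and 3, which is 1.79 on the log2 scale (SE 0.31, edgeR adjusted p = 0.116). ENSRNOG00000008176 went from 2131, 2483 and 2047 CPM to 15830, 4670 and 6241 CPM (log2 fold change 2.01 with SE 0.47, adjusted p = 0.43 in edgeR). PE replicate 1 was again its highest library. ENSRNOG00000008141 went from 138, 335 and 140 CPM to 3483, 659 and 1023 CPM (log2 fold change 3.07 with SE 0.59, adjusted p = 0.182 in edgeR). Here PE replicate 1 was the highest as well, unlike in input.

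The PE response of the anchors was not shown to differ between precipitates and input. The difference in log2 fold change, precipitate minus input, was -0.60 (SE 0.42) for ENSRNOG00000017786, 0.01 (SE 0.64) for ENSRNOG00000008176 and 1.00 (SE 0.77) for ENSRNOG00000008141, with unadjusted p-values of 0.175, 0.984 and 0.217 in edgeR and adjusted p-values of 1.00. Over all genes, 0 passed this test of the difference (0% of 10491, edgeR), 271 had an unadjusted p under 0.05 (2.58%), and DESeq2's Wald test passed 2, both lower. The 95% intervals of the difference ran from -1.48 to 0.29, -1.36 to 1.39 and -0.66 to 2.65 in the same order.

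Genes picked in input tended to differ the same way in the precipitates. To keep the precipitates out of the choice, the rule was applied to a fit of the 6 input libraries alone (8089 genes, of which 4493 at 10 CPM or more), and the genes were read in a fit of the 6 precipitates alone. The rule then gave 108 genes higher and 78 lower. Of the 108, 98 (90.7%) had a positive log2 fold change in the precipitates, against 48% of the 4493 genes, and in 61 (56.5%) all PE precipitates lay above all mock precipitates, against 7.99%. Of the 78, 56 (71.8%) were lower in the precipitates, against 52%, and 26 (33.3%) without overlap, against 10.6%. The median log2 fold changes in the precipitates were 0.85 and -0.41, against -0.04 for all 4493. All 20 genes with the lowest p in this input fit had the same sign in the precipitates, as did 57.1% of the 8089. Separate fits do not make the readings independent, since input and precipitate of 1 number may share cells.

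Picked instead by the 12-library fit, where a gene's spread in the precipitates bears on its p, the genes gave much the same shares. Of the 121 genes that met the rule as higher in PE input, 108 (89.3%) had a positive log2 fold change in the precipitates, against 49.2% of all 5492 genes at 10 CPM or more. In 62 of them (51.2%) the 3 PE precipitates lay above all 3 mock precipitates, against 7.96% of all. Their median log2 fold change was 1.40 in input, which is raised by the choice of genes, and 0.85 in the precipitates, against -0.01 for all 5492. Of the 75 genes picked as lower, 56 (74.7%) were also lower in the precipitates, against 50.8% of all, and 25 (33.3%) without overlap, against 9.58%. Their median log2 fold change in the precipitates was -0.40.

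The median ratio of the picked genes had the same direction in each PE precipitate. Taken over the 121 higher genes, the median log2 ratio to the mean mock precipitate (pseudocount of 1 CPM) was 0.94, 0.47 and 0.76 in PE replicates 1, 2 and 3 and between -0.03 and 0.05 in the mock precipitates. The mock precipitates form that mean, so their values near 0 are no reference for the PE values. The same ratio over all genes was not computed. Over the 75 lower genes it was -0.48, -0.54 and -0.56 in PE replicates 1, 2 and 3. PE replicate 1 was the highest PE input library in 53.7% of the 121 genes and the lowest in 52% of the 75, against 40.1% and 44.6% of all 5492. With mock replicate 2 and PE replicate 1 left out of input and precipitate and the rule applied again, 178 of 225 higher genes (79.1%, against 47.1% of all 5273) and 103 of 157 lower genes (65.6%, against 52.9%) had the same sign in the remaining precipitates. No p is attached to these shares, since genes of 1 library vary together.

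The abundant genes showed the same. Of the 29 genes at 100 CPM or more that were at least 2-fold higher in PE input, 28 had a positive log2 fold change in the precipitates, where 37.5% of the 1095 genes did. Of the 13 that were at least 2-fold lower, 12 had a negative one, where 62.5% of the 1095 did.

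**Figure D5:**
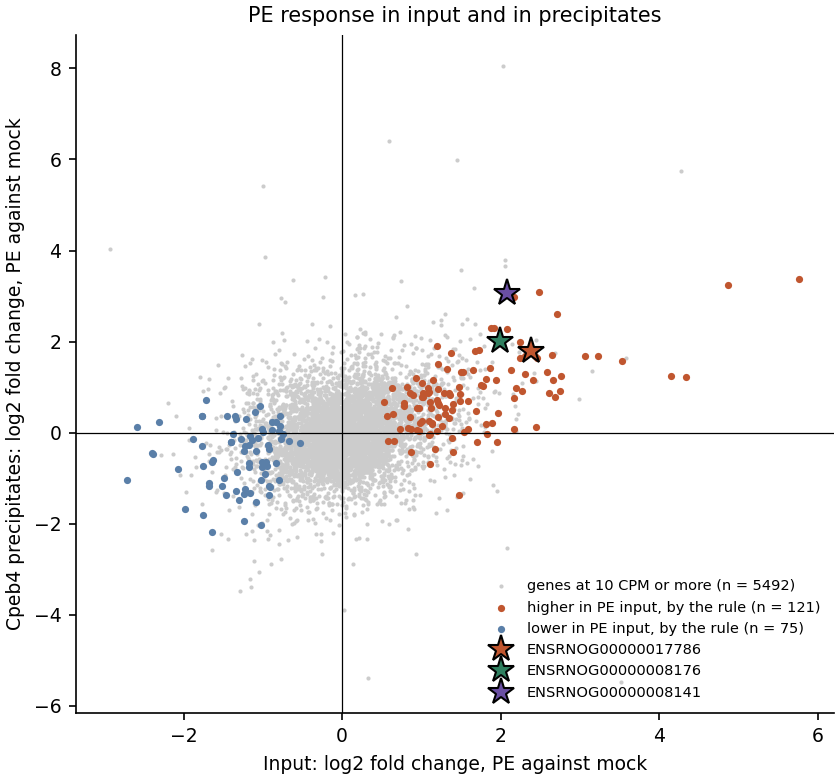
Log2 fold change of PE against mock in the Cpeb4 precipitates (vertical axis) against that in input (horizontal axis) for 5492 genes at 10 CPM or more, with the genes picked in input coloured by direction and the anchors as stars. Most coloured points lie in the upper right and lower left, 108 of 121 and 56 of 75, and all 3 stars lie in the upper right.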

How the data were processed

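A 3′ end kit with 200 ng of input material and 15 cycles was used, per the labels' protocols. The authors deposited raw counts per gene as 1 table, without normalization. Per the submitters' processing notes, the tools were STAR 2.7, cutadapt 2.5, DESeq2 and featureCounts 1.6.4, with build Rnor_6.0 and no options stated. Of its lines, 32883 hold genes and 32883 are blank and were skipped.

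From these counts, edgeR 4.0.16 in R 4.3.3 computed TMM factors, filterByExpr (10491 genes), robust dispersions and the quasi-likelihood F-test, in 1 fit of 4 group means over 12 libraries. P-values were adjusted by Benjamini-Hochberg over all genes, with 0.05 as threshold. The DESeq2 Wald test was the exception: it gave adjusted p-values for 6401 genes in PE against mock input. The SE is the log2 fold change divided by the square root of F. Separate fits of the 6 inputs and the 6 precipitates, added after seeing the data, served to compare both. Alternatives included DESeq2 1.42.0 and limma 3.58.1 voom. The steps were tested on simulated data, with 50 genes changed at each size. For PE against mock input, 1 was recovered at 2-fold, 6 at 4-fold, 21 at 8-fold and 27 at 16-fold. All sizes were simulated together, with the changed genes drawn from those at 10 CPM or more, and false calls numbered 0 in that simulation. A gene that did not pass may therefore still differ. Replicates of a group differed by more than sampling noise (lowest chi-square per degree of freedom 7.79). Lacking molecular identifiers, counts may include amplification copies.

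The genes described outside the anchors were the 2 per direction with the largest log2 fold change by the rule stated with them. The anchors, rules and gene lists were chosen with earlier results of these data known. The 41 gene lists, cell type markers included, were not used, as 0 identifiers matched a symbol.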

Additional observations from a re-analysis of the deposited data

How the results depend on the processing

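The limits are 3 libraries a group, a 3′ end count that carries no isoform, and uneven depth. With these, at low levels only large differences could be told from the spread. The test on simulated data recovered 6 of 50 changes of 4-fold, so most changes of this size were missed. Genes passing in PE against mock input numbered 1 higher and 0 lower as reported. The numbers were 14 and 1 without a filter on low counts, 18 and 3 with the DESeq2 Wald test, 5 and 0 with voom, 2 and 0 with the 6 input libraries alone, and 8 and 0 without mock replicate 2 and PE replicate 1; the cause was not tested. Leaving out single libraries gave 0 to 4 higher and 0 lower, the 4 without mock precipitate replicate 2, where 338 and 194 genes had an unadjusted p under 0.05. For the difference between precipitate and input, 0 and 0 as reported became 0 and 1 without a filter and 0 and 2 with DESeq2, and stayed at 0 and 0 in each fit without 1 library. DESeq2 size factors and library totals kept 1 and 0; library totals moved the median over all genes from 0.06 to 0.31 (log2), and that of ENSRNOG00000017786 to 2.54. No direction of the 7 genes described was reversed in any setting, which was likely beforehand, since their input groups do not overlap.

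Mock and PE libraries share replicate numbers. Their deviations from the group means correlated at -0.22, -0.18 and 0.12 for numbers 1, 2 and 3. Mock replicate 2 and PE replicate 1, the libraries that stood apart, correlated at 0.27. Each of these bears on the mean of its group of 3. The correlations therefore cannot show whether libraries of 1 number share a culture, which the labels do not state. With the number as a replicate block, 1 gene passed as higher and 0 as lower in the 12-library fit, and 0 and 0 in the 6 input libraries (ENSRNOG00000017786 adjusted p = 0.0225 and 0.899). A replicate block within treatment, added after seeing the data, left the difference between precipitate and input at 0 and 0.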
